A study of Homo sapiens with 4 samples.

Results

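The genes described here encode cytokine receptor chains (IL2RG, IL4R, IL7R, IL10RA and IL21R), Janus kinases (JAK1, JAK2 and JAK3) and suppressors of cytokine signaling (SOCS1 and SOCS3). They were taken by symbol from the gene table, and all 10 were among its 41507 genes. The samples came from SU-DHL-5 and Toledo, established cell lines of diffuse large B-cell lymphoma (DLBCL). Each line was treated with DMSO, the vehicle, or with 1 µM of JQ1, a small molecule that displaces the bromodomain and extra-terminal (BET) proteins from acetylated chromatin. All 4 samples are labelled with 6 h of treatment, and another time is given elsewhere in the sources. There was 1 sample per condition, with 2 libraries each. Nothing in the sources used here says what separates the libraries, so they were counted as 1 replicate. No test across samples was therefore possible, no p-value is given, and each line stands for itself alone.

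Cytokine receptors of this family carry no kinase of their own and rely on Janus kinases bound to their cytoplasmic tails. On ligand binding, the kinases phosphorylate the receptor and the STAT transcription factors, which then enter the nucleus. IL2RG encodes the common gamma chain, which pairs with IL4R, IL7R or IL21R and binds JAK3, whereas the partner chains bind JAK1. SOCS1 and SOCS3 bind the activated complex and stop the signal, and in many cells they are themselves transcribed in response to STATs. In B-cell biology, IL-4, IL-10 and IL-21 act on germinal center and plasma cell differentiation, and the IL-7 receptor is best known from early lymphoid precursors.

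The expression values are RPKM, reads per kilobase of gene length scaled to the mapped reads of the library, so levels can be set side by side between genes. The libraries held 14617583 to 17679831 mapped reads, as recovered from the RPKM values. Ratios are log2((A + 0.1)/(B + 0.1)) of the mean RPKM of each sample, and understate the difference for genes near 0. The 95% intervals are exact binomial intervals computed from recovered reads, and cover counting error only. A gene was called past a fold of 2 when it had a mean of at least 1 RPKM over the 8 libraries, as 9521 genes had. Of the 10 genes, 8 reached that mean. JAK2 lay just under it at 0.975 RPKM, and SOCS3 was at 0.00517 RPKM. IL7R and JAK3 reached it only through Toledo, and IL10RA only through SU-DHL-5.

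As a check of the treatment, HEXIM1, which commonly rises under BET inhibition, had a JQ1 to DMSO log2 ratio of 2.43 in SU-DHL-5 cells and 2.57 in Toledo cells, while MYC had −0.29 and 0.03, respectively. All 8 listed B cell markers were at 1 RPKM or more in every sample, and the 4 epithelial markers were at 0.

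The RefSeq promoters of these genes (GRCh38.p14) were searched for the motifs of transcription factors that act with this pathway. The window was the 250 bases before each start, on both strands, over 16 starts of the 10 genes and 35116 starts of all genes. The STAT motif TTCNNNGAA was found in 6.57% of all promoters and the 4-base-gap form TTCNNNNGAA in 5.38%, and neither was found at any start of the 10 genes. The E-box CACGTG, present in 6.34% of all promoters, was also found at none. For IL10RA and IL21R, the only window lay wholly inside the deposited gene, so the bases before their deposited starts were not searched. A window of JAK1, of JAK2 and of SOCS3 also lay inside the deposited gene. The other SOCS3 window, chr17:78360926-78361175 on the minus strand, lay upstream and apart from the deposited start. The bases directly before that start were thus not searched either. The absence of a motif thus holds for the RefSeq starts alone. The interferon-stimulated response motif GAAANNGAAA was in 3.02% of all promoters and, among these genes, in SOCS1. The nuclear factor kappa B motif GGGANTTTCC was in 0.527% of all promoters and, among these genes, in JAK3. A match is a match of letters and not evidence of binding. SOCS1 and JAK3 are printed because they hold a match, and IL7R and IL2RG because they were the genes past a fold of 2 with JQ1 in Toledo. Capitals mark the motif. The SOCS1 sequence is chr16:11256205-11256454 on the minus strand, with the match at −113 to −104 from the start. The JAK3 sequence is 30 bases at chr19:17847993-17848022 on the minus strand, with the match at −30 to −21. That match lies within the gene as the deposited table draws it, whose start is 89 bases upstream of the RefSeq start. The IL7R sequence is chr5:35856641-35856874 on the plus strand, and the IL2RG sequence is chrX:71111632-71111827 on the minus strand. Both are shortened to the bases before the deposited gene.
SOCS1: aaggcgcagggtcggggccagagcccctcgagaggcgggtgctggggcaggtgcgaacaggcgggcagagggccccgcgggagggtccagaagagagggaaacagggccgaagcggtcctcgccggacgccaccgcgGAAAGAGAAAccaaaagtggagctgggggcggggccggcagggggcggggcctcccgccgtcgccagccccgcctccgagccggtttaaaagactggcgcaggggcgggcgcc
JAK3: ggagccgagtGGGACTTTCCtctcgctgcc
IL7R: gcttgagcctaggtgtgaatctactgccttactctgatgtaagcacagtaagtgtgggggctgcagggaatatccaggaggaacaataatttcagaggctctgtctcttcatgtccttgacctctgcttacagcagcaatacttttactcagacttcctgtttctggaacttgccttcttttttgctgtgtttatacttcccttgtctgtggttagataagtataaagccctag
IL2RG: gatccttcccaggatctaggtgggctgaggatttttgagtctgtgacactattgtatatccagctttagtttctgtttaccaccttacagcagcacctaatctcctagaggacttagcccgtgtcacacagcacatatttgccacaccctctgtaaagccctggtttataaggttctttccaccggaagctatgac

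The base composition of the full windows of 250 bases, and not of the shortened sequences printed, differed. G and C made up 74% of the SOCS1 window and 62.8% of the JAK3 window, but 50% for IL2RG and 43.6% for IL7R. The median over all promoters was 58%.

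The levels differed widely between the genes. In DMSO-treated SU-DHL-5 cells, IL2RG stood first with 56.7 and 57.0 RPKM in its libraries. JAK1 with 51.4 and 46.4 RPKM and SOCS1 with 46.5 and 45.2 RPKM followed, and their libraries overlapped. IL4R had 16.3 and 16.5 RPKM and IL10RA 7.05 and 6.20 RPKM. IL21R, JAK2, JAK3 and IL7R followed in that order without overlap, from 1.35 RPKM down to 0.0895 RPKM, and SOCS3 was at 0. In DMSO-treated Toledo cells, IL2RG was again first, and JAK1 and SOCS1 again overlapped. IL7R came next there, followed by JAK3 and then IL4R. With JQ1, JAK1 was first in both lines.

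**Figure D1:**
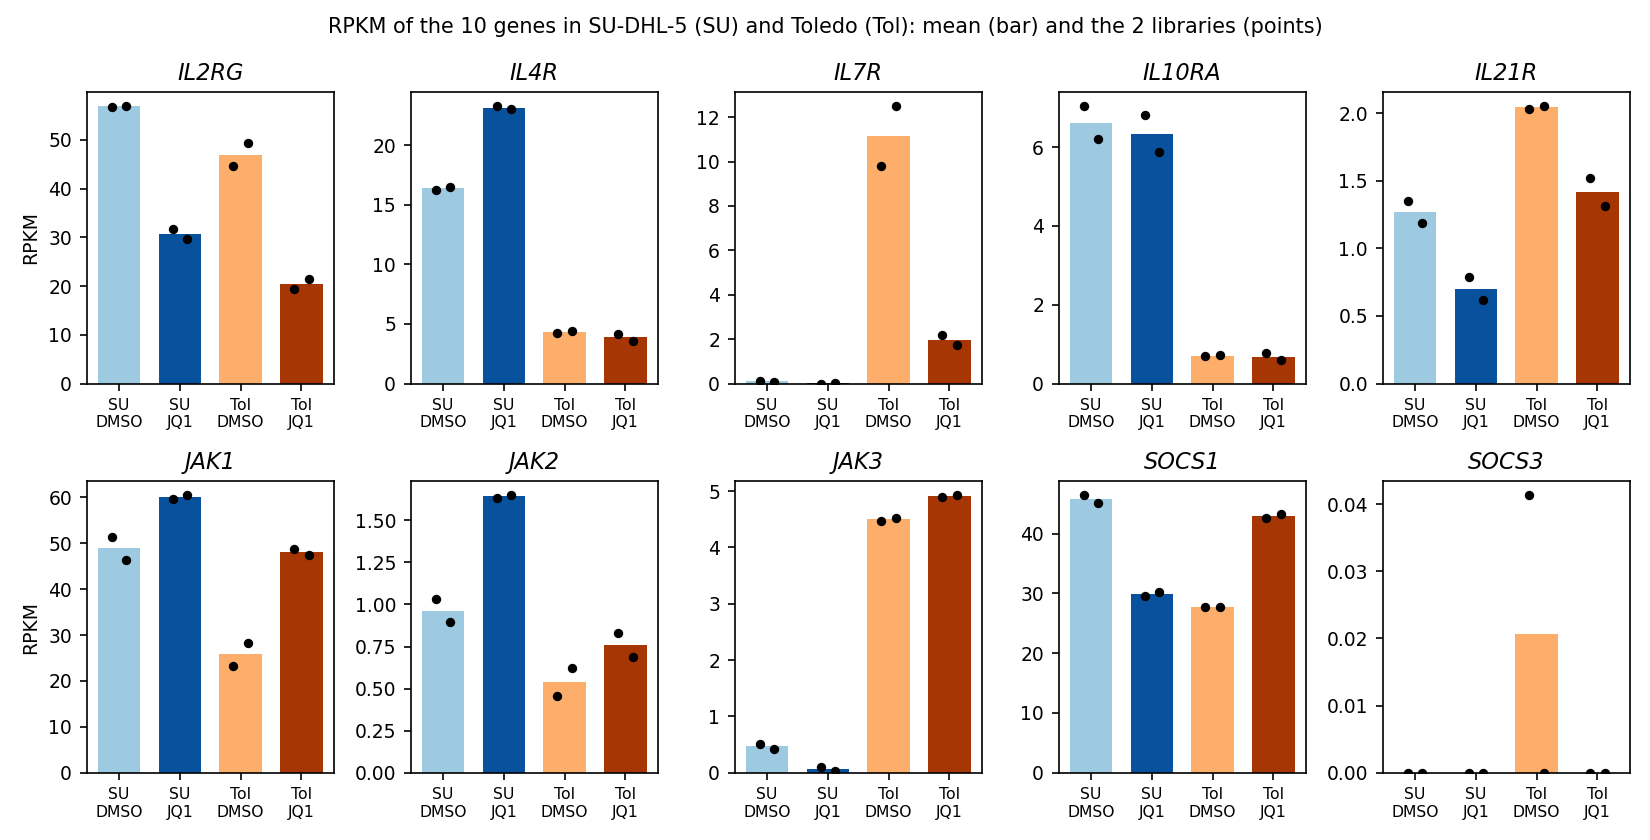
RPKM of each of the 10 genes (vertical axes from 0, each with its own scale) in SU-DHL-5 (SU) and Toledo (Tol) cells treated with DMSO or JQ1. Bars are the mean of a sample and points its 2 libraries. IL7R and JAK3 stand high in Toledo only, IL4R and IL10RA in SU-DHL-5 only, and SOCS1 is lower with JQ1 in SU-DHL-5 (29.7 and 30.3 against 46.5 and 45.2 RPKM) and higher in Toledo (42.6 and 43.3 against 27.8 and 27.8 RPKM).

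To ask how BET inhibition bore on these genes, JQ1-treated cells were compared with DMSO-treated cells of the same line. In SU-DHL-5, 1 of the 8 genes of at least 1 RPKM, JAK3, was past a fold of 2 lower, and 0 were past it higher. Over all genes of that level, 5.44% were past a fold of 2 lower and 1.74% higher. JAK3 reached that mean only through Toledo, and in SU-DHL-5 it had 84 reads with DMSO and 12 with JQ1. With a pseudocount of 1 RPKM, the number lower in SU-DHL-5 was 0. In Toledo, IL2RG and IL7R were past a fold of 2 lower (2 of 8, against 6.94% of all genes), and 0 were past it higher (against 1.61%). IL7R passed the filter only through DMSO-treated Toledo cells, so the filter favored its call. The libraries of JQ1 and DMSO did not overlap for 7 of the 8 genes in each line. This is close to the background, since the share of all genes without overlap was 78.4% in the former line and 72.2% in the latter. The median log2 ratio of the 8 genes was −0.69 in SU-DHL-5, where the median of all genes was 0.01, and −0.09 in Toledo, against −0.06. Over the 4 genes of at least 5 RPKM, the median was −0.16 in SU-DHL-5 and, with the other sign, 0.24 in Toledo. In Toledo, the median of the 8 genes was 0.05 with library 1 alone and −0.25 with library 2 alone.

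Among the receptor chains, IL2RG (chrX:71107404-71111631), the shared gamma chain, was lower with JQ1 in both lines. In SU-DHL-5, it had 56.7 and 57.0 RPKM with DMSO and 31.8 and 29.7 RPKM with JQ1. Toledo cells had 44.7 and 49.3 RPKM with DMSO and 19.5 and 21.4 RPKM with JQ1. The libraries were far apart in both lines. The log2 ratio was −0.88 for SU-DHL-5 (interval −0.98 to −0.79) and −1.20 for Toledo (−1.30 to −1.09). At most 6.51% of all genes tested had a lower ratio in either line. The ratio in Toledo was lower than that in SU-DHL-5 by 0.31 on the log2 scale (interval of the difference −0.45 to −0.17).

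IL7R (chr5:35856875-35879603), the alpha chain of the IL-7 receptor, was a gene of Toledo cells. The Toledo libraries had 9.78 and 12.5 RPKM with DMSO and 2.18 and 1.74 RPKM with JQ1. All JQ1 values lay under all DMSO values, with 292 reads against 1731. The log2 ratio was −2.45 (−2.69 to −2.32), and 0.914% of all genes tested had a lower one. In SU-DHL-5, IL7R had 9 and 7 reads with DMSO and 0 and 1 read with JQ1. The log2 ratio there was −0.95 and was held down by the pseudocount. It was −2.75 with a pseudocount of 0.01 RPKM and −0.14 with 1 RPKM. The reads without a pseudocount gave an interval of −9.32 to −1.24, so the size of the difference could not be read at this depth. With library 1 alone, the ratio was −1.17, past the fold of 2.

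IL21R (chr16:27402162-27452042), the specific chain of the IL-21 receptor, was expressed at a low level and lower with JQ1 in both lines. SU-DHL-5 cells had 1.35 and 1.19 RPKM with DMSO and 0.785 and 0.618 RPKM with JQ1. Toledo cells had 2.03 and 2.05 RPKM with DMSO and 1.52 and 1.31 RPKM with JQ1. The log2 ratios of −0.77 (−1.19 to −0.51) and −0.50 (−0.77 to −0.28) stayed within a fold of 2. Their difference between the lines had an interval that spanned 0 (−0.09 to 0.72).

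IL4R (chr16:27313857-27364778), the chain that binds IL-4, went its own way. In SU-DHL-5, it had 16.3 and 16.5 RPKM with DMSO and 23.3 and 23.0 RPKM with JQ1, a log2 ratio of 0.50 (0.42 to 0.58). Toledo cells had 4.22 and 4.39 RPKM with DMSO and 4.16 and 3.60 RPKM with JQ1, a log2 ratio of −0.15 whose interval spanned 0 (−0.32 to 0.02). IL4R thus stood higher with JQ1 in SU-DHL-5 alone. IL4R and IL21R are neighbors on chromosome 16, 37383 bases apart, with 0 genes of the table or of RefSeq between them. In SU-DHL-5, where one was higher and the other lower, IL4R exceeded IL21R at most 13.9 times in a DMSO library and 29.7 and 37.2 times with JQ1. In Toledo, this ratio was 2.08 and 2.13 with DMSO and 2.73 and 2.74 with JQ1.

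IL10RA (chr11:117986386-118001483), the ligand-binding chain of the IL-10 receptor, was alike in both treatments. SU-DHL-5 cells had 7.05 and 6.20 RPKM with DMSO and 6.81 and 5.87 RPKM with JQ1. Toledo cells had 0.689 and 0.719 RPKM with DMSO and 0.765 and 0.598 RPKM with JQ1. The libraries overlapped in both lines, and the log2 ratios were −0.06 (−0.19 to 0.09) and −0.04 (−0.48 to 0.39).

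Several of these chains are also typical of T and NK cells, whose markers were set beside them. The summed level of the 7 listed T and NK markers was 1.22 and 1.54 RPKM in the DMSO libraries of SU-DHL-5 and 0.0452 to 0.120 RPKM with JQ1, and CD3D, CD4 and CD8A were at 0 in both of these samples. CD3E, a chain of the T cell receptor complex, made up most of this sum, at 1.01 RPKM with DMSO and 0.0827 RPKM with JQ1. In Toledo, the sum was 0.115 to 0.300 RPKM with DMSO and 0 with JQ1, and CD3E and NCAM1 were at 0 in both samples. These sums moved in the same direction as IL2RG, IL7R and IL21R. With DMSO in SU-DHL-5, the sum was far under the level of IL2RG, near that of IL21R (1.35 and 1.19 RPKM) and above that of IL7R (0.124 and 0.0895 RPKM). With DMSO in Toledo, the sum was under the level of IL2RG (44.7 and 49.3 RPKM), IL7R (9.78 and 12.5 RPKM) and IL21R (2.03 and 2.05 RPKM). The part of such cells in the result was not tested. In bulk RNA, fewer cells of a kind and less RNA per cell cannot be told apart.

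Among the kinases, JAK1 (chr1:64833223-64966910), which serves most receptors of this family, was higher with JQ1 in both lines. In SU-DHL-5, it had 51.4 and 46.4 RPKM with DMSO and 59.6 and 60.5 RPKM with JQ1. Toledo cells had 23.2 and 28.3 RPKM with DMSO and 48.7 and 47.4 RPKM with JQ1. The log2 ratio was 0.29 (0.25 to 0.34) in the former line and 0.90 (0.85 to 0.96) in the latter, where it was above that of 97.8% of all genes tested. The difference between the lines was 0.60 (0.54 to 0.68), and it was 0.85 with library 1 alone and 0.36 with library 2 alone. In Toledo, JAK1 was just within the fold of 2, and past it at 1.07 with library 1 alone, against 0.74 with library 2 alone. The DMSO libraries of Toledo differed by gene length, with a Spearman's rho of 0.65 between length and the log2 ratio of library 2 to library 1 across 8765 genes, which are not independent replicates. JAK1 differed by 0.29 and IL7R by 0.35 between these libraries. With the ratios centred on gene length, JAK1 was at 0.88 and IL7R at −2.44 in Toledo. The shorter IL2RG was then at −1.08 and SOCS1 at 0.83 in Toledo, each moved beyond its counting interval. In SU-DHL-5, JAK1 was at 0.18 with this centring. JAK1 also shares 10 bases with the neighboring RAVER2, which had 5.82 RPKM with DMSO and 3.21 RPKM with JQ1 in Toledo, opposite to JAK1.

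JAK2 (chr9:4985245-5129948), the kinase of hematopoietic growth factor receptors, was expressed at a low level and was also higher with JQ1. SU-DHL-5 cells had 1.03 and 0.894 RPKM with DMSO and 1.63 and 1.65 RPKM with JQ1. Toledo cells had 0.457 and 0.620 RPKM with DMSO and 0.828 and 0.686 RPKM with JQ1. The libraries did not overlap in either line, and the log2 ratios were 0.71 (0.53 to 1.02) and 0.42 (0.16 to 0.84). The ratio in Toledo was 0.74 with library 1 alone and 0.13 with library 2 alone. The interval of the difference between the lines spanned 0 (−0.68 to 0.13).

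JAK3 (chr19:17824782-17848071), the kinase bound by the common gamma chain, differed between the lines. In SU-DHL-5, it had 0.509 and 0.428 RPKM with DMSO and 0.0991 and 0.0373 RPKM with JQ1. These values stand for 44 and 40 reads against 9 and 3. In Toledo, it had 4.48 and 4.53 RPKM with DMSO and 4.90 and 4.93 RPKM with JQ1. The log2 ratio was −1.76 in SU-DHL-5, with an interval of −3.75 to −1.86 from the reads without a pseudocount, and 0.12 in Toledo (−0.01 to 0.26). With a pseudocount of 1 RPKM, the ratio in SU-DHL-5 was −0.46. The difference between the lines was 1.88, or 2.86 from the reads (1.98 to 3.75).

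As a share of the summed RPKM of JAK1, JAK2, JAK3 and TYK2, the remaining Janus kinase, JAK1 dominated every library. Its share was 72.7% and 74.4% in the DMSO libraries of SU-DHL-5 and 76.1% and 76.8% with JQ1. In Toledo, it was 54.0% and 60.6% with DMSO and 71.3% and 70.5% with JQ1. JAK3 made up 10.4% and 9.69% in Toledo with DMSO and 7.17% and 7.34% with JQ1, although its own level was not lower. In SU-DHL-5, its share was 0.719% and 0.686% with DMSO and 0.126% and 0.0474% with JQ1. The ratio of IL2RG to JAK3 was 112 and 133 with DMSO in SU-DHL-5, but 9.99 and 10.9 in Toledo.

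**Figure D2:**
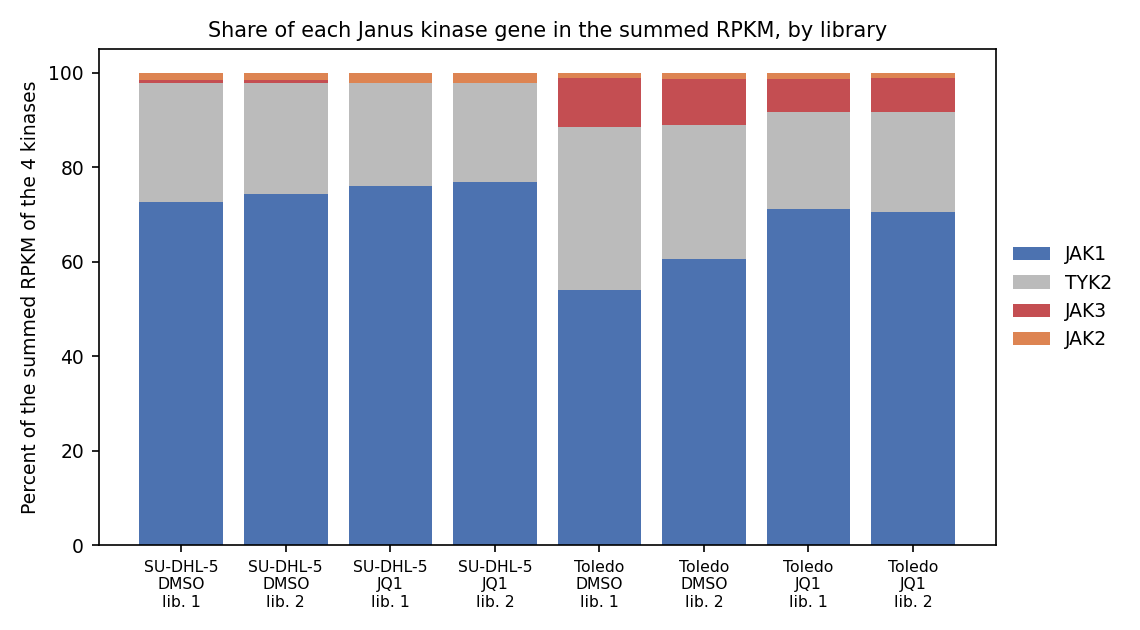
Share of each Janus kinase gene in the summed RPKM of all 4 (vertical axis, percent), for each of the 8 libraries. JAK1 holds from 54.0% to 76.8%, and the JAK3 segment is visible in Toledo (7.17% to 10.4%) and under 1% in SU-DHL-5.

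Of the suppressors, SOCS1 (chr16:11254417-11256182), which inhibits the kinases directly, differed with JQ1 in opposite directions. In SU-DHL-5, it had 46.5 and 45.2 RPKM with DMSO and 29.7 and 30.3 RPKM with JQ1. In Toledo, it had 27.8 and 27.8 RPKM with DMSO and 42.6 and 43.3 RPKM with JQ1. The libraries of a sample lay close together, and the JQ1 level of each line stood near the DMSO level of the other. The log2 ratio was −0.61 (−0.72 to −0.50) for SU-DHL-5 and 0.63 (0.52 to 0.74) for Toledo, and the difference was 1.24 (1.09 to 1.39). Each ratio was within a fold of 2, with 11.3% of all genes tested lower in SU-DHL-5 and 94.2% lower in Toledo. The ratio of JAK1 to SOCS1 was 1.11 and 1.03 with DMSO and 2.01 and 1.99 with JQ1 in SU-DHL-5. In Toledo, it was 0.837 and 1.02 with DMSO and 1.14 and 1.10 with JQ1.

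SOCS3 (chr17:78356777-78360079), known as the inhibitor of receptors that signal through gp130, was at 0 in 7 of the 8 libraries. It was at 0.0413 RPKM in library 1 of DMSO-treated Toledo cells, which stands for 1 read at the shortest length that gives whole reads. The floor of 3 reads per sample allows up to 0.0726 RPKM, so SOCS3 was not detectable at this depth and no ratio is given.

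**Figure D3:**
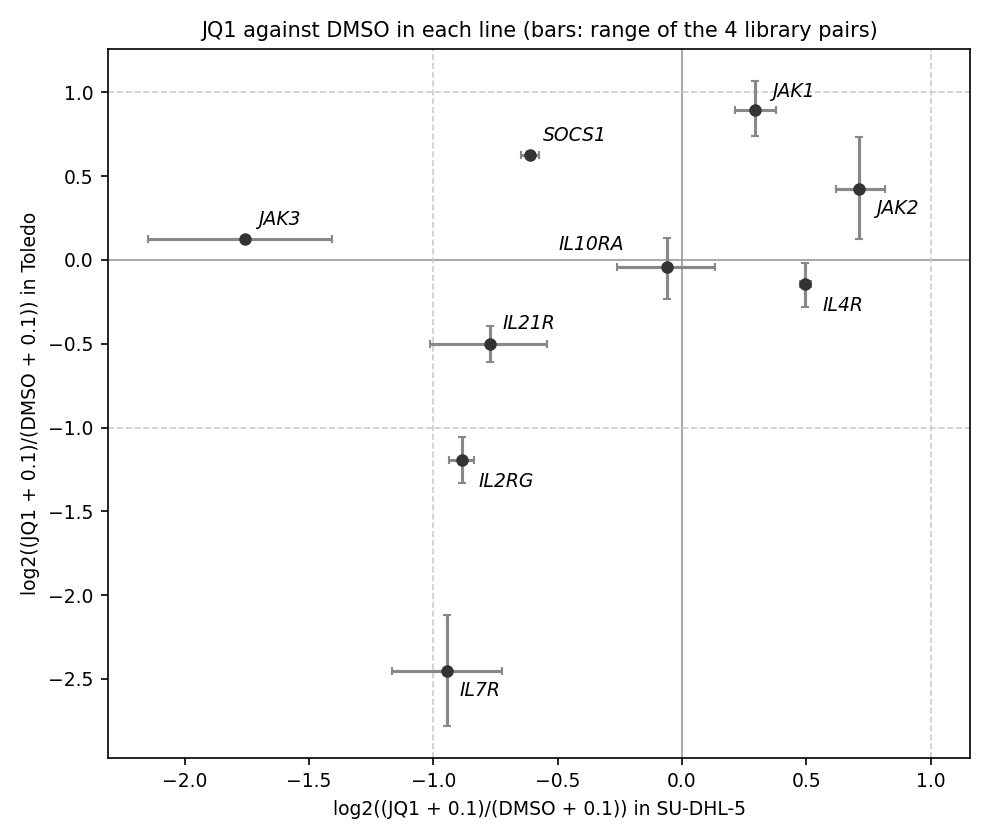
Log2 ratio of JQ1 to DMSO in SU-DHL-5 (horizontal axis) and Toledo (vertical axis) for 9 of the genes, without SOCS3. Points are ratios of sample means, bars the range of the 4 pairs of libraries, and dashed lines a fold of 2. IL2RG, IL7R and IL21R lie at lower left, JAK1 and JAK2 at upper right, SOCS1 (−0.61 and 0.63) and JAK3 at upper left, and IL4R at lower right.

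The same comparison was made for 67 other genes of the pathway, of which 40 reached a mean of 1 RPKM. In SU-DHL-5, 4 of the 40 (10%) were past a fold of 2 lower and 0 higher. In Toledo, 5 (12.5%) were past it lower and 0 higher. These shares stand beside the 5.44% and 6.94% of all genes given above, and the 40 genes had a median log2 ratio of 0.09 and −0.04, respectively. Among the genes counted as lower, IL27RA and the ligand gene IL10 passed the filter only through DMSO-treated SU-DHL-5 cells. CSF2RB did so only through DMSO-treated Toledo cells. The filter thus favored these lower calls, and the counts are a description only. Genes past the fold in the same direction in both lines were IL12RB1, IL27RA and PTPN6.

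IL12RB1, a chain of the IL-12 and IL-23 receptors, had 6.81 and 6.71 RPKM with DMSO and 2.21 and 2.50 RPKM with JQ1 in SU-DHL-5. Toledo cells had 1.37 and 1.27 RPKM with DMSO and 0.281 and 0.162 RPKM with JQ1. IL27RA, a chain of the IL-27 receptor, had 2.72 and 2.62 RPKM with DMSO and 1.04 and 1.07 RPKM with JQ1 in SU-DHL-5. Its Toledo libraries were lower, at 0.614 and 0.507 RPKM with DMSO and 0.207 and 0.185 RPKM with JQ1. The log2 ratios of IL27RA were −1.26 and −1.16. Of the 11 receptor chains tested, 2 were past the fold lower in SU-DHL-5 (against 5.44% of all genes) and 3 in Toledo (against 6.94%), where CSF2RB, the common beta chain, was the third at −2.24. IL27RA passed the filter only through DMSO-treated SU-DHL-5 cells, and CSF2RB only through DMSO-treated Toledo cells. The filter thus favored these lower calls, and the counts of receptor chains are a description only.

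PTPN6 encodes SHP-1, a phosphatase that acts on Janus kinases and on antigen receptor signaling. It had 122 and 103 RPKM with DMSO and 27.7 and 29.6 RPKM with JQ1 in SU-DHL-5. Toledo cells had 25.2 and 25.8 RPKM with DMSO and 4.38 and 3.99 RPKM with JQ1. Its log2 ratios of −1.97 and −2.58 were far from those of the other 14 negative regulators tested, of which 0 were past a fold of 2 in either line. Of the 6 genes for TYK2 and the STATs, 0 were past a fold of 2 with JQ1 in either line. The shares over all genes were small too, at 5.44% (SU-DHL-5) and 6.94% (Toledo) for lower, and 1.74% and 1.61% for higher. A count of 0 is thus not unusual for sets of 6 or 14 genes, and does not set them apart from other genes. STAT3, which the kinases activate downstream of IL-10 and IL-21, had 9.13 and 10.3 RPKM with DMSO and 18.6 and 18.4 RPKM with JQ1 in Toledo, a log2 ratio of 0.92. In SU-DHL-5, its ratio was 0.00. IL10, the only one of 9 ligand genes at 1 RPKM or more, had 9.38 and 9.76 RPKM with DMSO and 2.49 and 2.44 RPKM with JQ1 in SU-DHL-5. In Toledo, it was at 0 in 3 of the 4 libraries. Of the 7 STAT-linked genes, BCL2L1, an inhibitor of apoptosis, was only just past the fold in Toledo by its means, and within it by its higher libraries, at 30.1 RPKM with DMSO and 15.2 RPKM with JQ1. STAT3, IL10, CSF2RB and BCL2L1 were named after their values were seen.

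**Figure D4:**
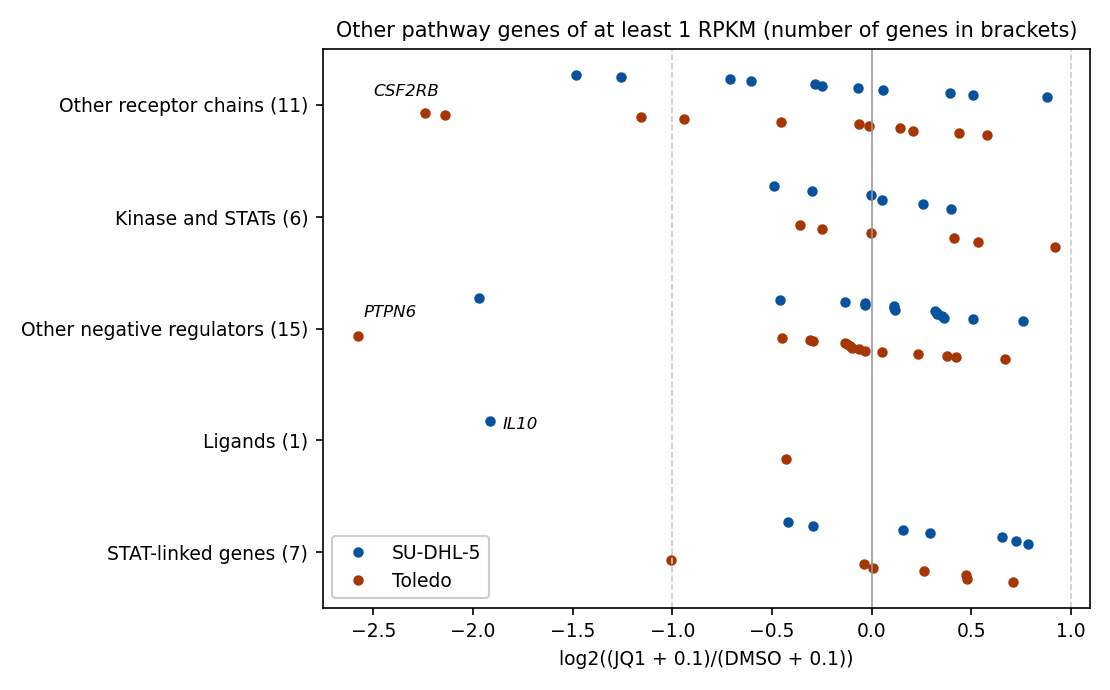
Log2 ratio of JQ1 to DMSO (horizontal axis) for the 40 other pathway genes of at least 1 RPKM, in rows by list, with SU-DHL-5 in blue and Toledo in brown. Each point is a gene, vertical offsets within a row carry no value, and dashed lines mark a fold of 2. Most points lie within a fold of 2, and PTPN6 stands apart from the other negative regulators at −1.97 and −2.58.

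The baseline of the lines was compared in the DMSO-treated samples. Of the 8 genes, 2 were past a fold of 2 higher in Toledo (IL7R and JAK3) and 2 lower (IL4R and IL10RA). IL7R, JAK3 and IL10RA reached the mean of 1 RPKM only through the line where they were higher. The filter thus favored such calls, and the counts are a description only. Over all genes, 14.4% were past it higher and 13.3% lower. For all 8, the libraries of the lines did not overlap, as for 84.3% of all genes. The median log2 ratio of the 8 genes was −0.50, against −0.01 for all genes.

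IL7R was the most divergent, with 9.78 and 12.5 RPKM in Toledo against 0.124 and 0.0895 RPKM in SU-DHL-5. The log2 ratio of 5.76 was held down by the pseudocount, since the reads alone gave an interval of 6.00 to 7.51. JAK3 was higher in Toledo with a ratio of 3.02 (2.95 to 3.61). IL10RA was lower in Toledo with a ratio of −3.06 (−3.56 to −2.92), and IL4R with −1.90 (−2.06 to −1.80). IL10, the ligand of IL10RA, was at 9.38 and 9.76 RPKM in SU-DHL-5 and at 0.0694 and 0 RPKM in Toledo.

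The remaining genes differed less. JAK1 had a ratio of −0.92 (−0.98 to −0.88) and was past a fold of 2 at −1.14 with library 1 alone, against −0.71 with library 2 alone. JAK2 had −0.73 (−1.17 to −0.52), with −1.02 for library 1 alone and −0.46 for library 2 alone. SOCS1 had −0.72 (−0.83 to −0.61), IL2RG −0.27 (−0.36 to −0.20) and IL21R 0.65 (0.44 to 0.94). Of the 40 other pathway genes, 10 (25%) were past a fold of 2 higher in Toledo and 9 (22.5%) lower, beside 14.4% and 13.3% of all genes. STAT3 was among the lower ones, with a ratio of −2.13. Some of the genes counted, such as CSF2RB and IL10, reached the mean of 1 RPKM only through the line where they were higher. The filter favored these calls too, so the counts are a description only.

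**Figure D5:**
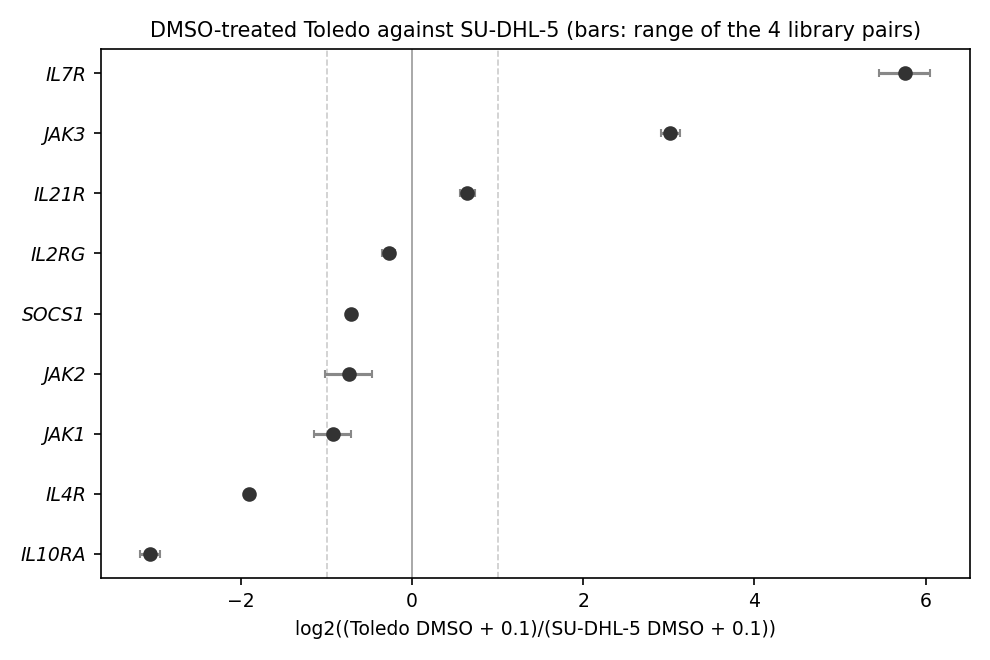
Log2 ratio of DMSO-treated Toledo to DMSO-treated SU-DHL-5 cells (horizontal axis) for 9 of the genes, without SOCS3. Points are ratios of sample means, bars the range of the 4 pairs of libraries, and dashed lines a fold of 2. IL7R (5.76) and JAK3 (3.02) lie far to the right, and IL10RA (−3.06) and IL4R (−1.90) to the left.

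The genes whose log2 ratios lay nearest to those of a gene described here were sought over the 3 comparisons, by Euclidean distance among all 9521 genes. The pattern of IL2RG was nearest to that of IPO8, an importin, at a distance of 0.107. IL4R was nearest to APOM (0.123), IL7R to VPS37B (0.192), IL10RA to DNAJC15 (0.289) and JAK3 to RCAN1 (0.489). VPS37B, for example, had ratios of −0.82, −2.41 and 5.63, beside −0.95, −2.45 and 5.76 for IL7R. These distances rest on 4 samples, and the comparisons share control samples.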

How the data were processed

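A gene table and a transcript table of RPKM values were deposited by the authors, made from paired, trimmed reads of libraries prepared with a stranded mRNA kit. The submitters' processing notes name CASAVA 2.0 and GRCh38 (hg38), while the aligner, the counting and the annotation are not given in the sources used here. Deposited positions overlapped RefSeq on GRCh38.p14 for 99.8% of 32698 shared symbols. The genes and the pathway lists were chosen with earlier results of these data known. One entry of the receptor list, TSLP, is a ligand, and was under the filter.

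From the files, mapped reads per library were recovered with single-exon genes, then a length per gene, which gave whole reads within 0.03 for 14942 of 14944 genes with a value. The recovered length of a gene with few reads can be too short. Reads served for intervals, and no count model was fitted with 1 sample per condition. Genes named were the 10 genes, HEXIM1 and MYC, pathway genes past a fold of 2 in both lines, and the nearest patterns, while STAT3, IL10, CSF2RB, BCL2L1, RAVER2, CD3E and COL1A1 were named after their values were seen. The scripts were tested on simulated data. Alternatives varied the pseudocount, the scaling, the library, the table, the filter and the fold. A centring on gene length was added after seeing the data. Scripts ran in Python 3.11.15 with scipy 1.17.1, pandas 2.3.3 and numpy 2.4.6, and plots were drawn with matplotlib 3.10.9.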

Additional observations from a re-analysis of the deposited data

Results flagged for a closer look

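For 3 of the genes, every JQ1 library lay on one side of the DMSO libraries in SU-DHL-5 and on the other side in Toledo. Libraries without overlap were common, at 78.4% of genes tested for the former line and 72.2% for the latter. How often the sides were opposite over the whole table was not determined, so the count of 3 has no background. The log2 ratio of JQ1 to DMSO in Toledo minus that in SU-DHL-5 was 1.24 for SOCS1, 1.88 for JAK3 and −0.64 for IL4R. For SOCS1, the intervals of both ratios excluded 0. For JAK3 and IL4R, the interval in Toledo spanned 0, so only the ratio in SU-DHL-5 exceeded counting error. The interval of the difference between the lines, from the reads, was 1.98 to 3.75 for JAK3 and −0.83 to −0.46 for IL4R. It covers counting error only. With 1 sample per condition, the difference between the lines was not tested.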

How the results depend on the processing

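With n = 1 per condition, the values describe these samples. Genes under 1 RPKM, JAK3 and IL7R in SU-DHL-5 above all, depend on the pseudocount. No paired analysis was possible because there was only 1 sample per condition. Of 245 alternative values of single genes, 217 differed from the main value by at most the counting interval's half-width, which is wide for IL7R and JAK3 in SU-DHL-5, and 5, for IL10RA and for the difference of IL10RA or JAK2 between the lines, had the other sign.

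In SU-DHL-5, the median log2 ratio of the genes was −0.28 with a pseudocount of 1, −0.73 with 0.01, −0.72 when scaled by the median ratio of genes (1.02), −0.65 with library 2 alone, −0.34 without a filter (SOCS3 then entering as 0) and −0.16 for a mean of at least 5 RPKM. The number of genes lower was 0 with a pseudocount of 1 and for at least 5 RPKM. It was 2 with a pseudocount of 0.01, with library 1 alone or when centred on gene length, each time by IL7R joining JAK3, and 5 at a fold of 1.5. In Toledo, genes of at least 5 RPKM had a median of 0.24 and 1 gene lower. The number of genes higher there was 1 with library 1 alone (JAK1) and 2 at a fold of 1.5. For the baseline, genes of at least 5 RPKM had a median of −0.82, with 0 genes higher and 1 lower. The median was −0.40 when centred on gene length, and 4 genes were lower at a fold of 1.5. The shares and medians over all genes were not determined under these alternatives. The counts in this paragraph are thus not a result about these genes.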

Other observations

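The transcript table splits the reads of a gene between its transcripts, and this split was less stable between the libraries of a sample than the gene values were. In DMSO-treated SU-DHL-5 cells, the JAK3 signal was assigned wholly to transcript 2 in library 1 (0.515 RPKM) and wholly to transcript 1 in library 2 (0.430 RPKM), while the gene values were 0.509 and 0.428 RPKM. In both lines and treatments, JAK1 was assigned mostly to its transcript 1, from 68.3% to 87.5% of the summed transcript RPKM. In DMSO-treated Toledo cells, IL4R transcript 2 held 0% in library 1 and 35.9% in library 2, and IL4R transcript 5 held 31.7% and 3.44%, while the gene values were 4.22 and 4.39 RPKM. IL2RG, SOCS1 and SOCS3 have 1 transcript each in the table.

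COL1A1, a fibroblast collagen and 1 of the 4 fibroblast markers listed, was at 2.50 RPKM in DMSO-treated Toledo cells and 0.313 RPKM with JQ1, while COL3A1 was at 0 in both samples.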
